A study of Caenorhabditis elegans with 6 samples.

Results

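The pals genes of Caenorhabditis elegans were described in whole animals of the wild-type strain N2 and of the alpha-synuclein strain UM10. Members were all genes whose symbol is pals- followed by digits, a rule that uses no measured value. Earlier results of these data were known when the family was chosen. There were 38 such genes among 46778 gene identifiers in the count tables, and the annotation lists all 38 as protein-coding.

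The pals genes take their name from a protein signature that they share with the human gene ALS2CR12, and their biochemical activity is little known. Many of them belong to the intracellular pathogen response, a set of genes that worms switch on when microsporidia or the Orsay virus infect the intestine, when the proteasome is blocked or when heat is prolonged. Several members act as switches of this response: pals-22 and pals-17 restrain it, pals-25 drives it when pals-22 is lost, and pals-16 and pals-20 promote it. The promoter of pals-5 is the usual reporter of the response.

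There were 6 libraries of poly-A RNA from animals grown from egg to the L4 stage, the last larval stage, in 3 groups of 2. N2 on K12 was wild type, raised on the Escherichia coli strain K12 BW25113. UM10 carries aex-3p::alphasynA53T, listed as unkIs7 in the sample titles, a transgene for human alpha-synuclein carrying A53T, expressed in neurons from the promoter of aex-3. UM10 was raised either on K12 or on csgA(-) bacteria, which lack the major subunit of the curli amyloid fibre. The titles write WT for the food of N2 and of one UM10 group, which is read here as K12. N2 on csgA(-) was not analysed here, and whether the 2 libraries of a group came from separate cultures is not given in the sources used here, so the p-values measure only the spread between these libraries. For the 4 UM10 libraries, titles and deposited file names disagree on the food. Food names below follow the titles. Under the file names the 2 UM10 groups would exchange foods and differences between foods would take the opposite sign, while statements on both UM10 groups against N2 would stand.

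Gene counts per library ranged from 22657727 to 23532382. N2 replicate 1 stood apart: its TMM factor was 0.610, against 1.02 to 1.20 in the other libraries. Levels are TMM-scaled CPM, that is, counts divided by library size and by these factors. Markers of intestine, epidermis, neurons, sperm and oocytes were all detected in every library. The 8 oocyte genes were far apart between strains, with a summed level of 435 and 1006 CPM in N2 and 2909 to 5556 CPM in UM10. The 9 intestinal genes summed to 33750 CPM in N2 replicate 1 and to 8404 to 12260 CPM in the other 5 libraries. Most of that sum was asp-1, at 24280 CPM in N2 replicate 1. All of the 9 genes except pgp-1 had their highest level in that library, among them elt-2 at 67.2 CPM and act-5 at 5538 CPM. In that library pgp-1 was at 36.7 CPM, against 47.4 and 60.6 CPM in UM10 on K12. On csgA(-) replicate 1, asp-1 was at 10210 CPM and elt-2 at 5.59 CPM, its lowest level. Values were measured in whole animals, so fewer expressing cells and less RNA per cell cannot be told apart.

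Most pals genes lie in tandem groups. With members joined when less than 20000 bases apart, 33 of the 38 fell into 6 groups and 5 stood alone (WBcel235, Ensembl release 115). The largest group held 14 genes on chromosome I, from 13083321 to 13144623, and included pals-5, pals-6 and pals-14. On chromosome III, pals-22, pals-23, pals-24 and pals-25 lay between 120435 and 137975, where pals-22 (132418 to 134401) is followed on the same strand by pals-25 (134494 to 137975). A group of 7 on the same chromosome, from 1376945 to 1406263, held pals-16 to pals-21 and pals-40, and pals-26, pals-27 and pals-28 lay from 4375154 to 4387757. The remaining groups were pals-29 and pals-30 on chromosome IV and pals-37, pals-38 and pals-39 on chromosome V. The single genes were pals-1 on chromosome I and pals-31, pals-32, pals-33 and pals-34 on chromosome V.

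The members differed widely in level. Of the 38 genes, 35 had at least 1 count, and pals-10, pals-11 and pals-12 had none in any library. For pals-12, 1185 of its 1191 exon bases also belong to pals-3, and reads that fit both genes were not counted for either. The low-count filter kept 23 members. Of these, 12 were above its limit in both N2 libraries, 4 in one N2 library and 7 in UM10 libraries only. Those 7 were pals-2, pals-4, pals-6, pals-14, pals-27, pals-31 and pals-33. They entered the test through the groups in which they were high, so counts and medians over the tested members are given as a description.

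In N2 the family was carried by the pals-22 and pals-17 groups of chromosome III. These 11 genes, set apart from the others after their values were seen, made up 89.3% and 88.1% of the summed pals level in the N2 libraries. Per kilobase of exon the highest mean levels in N2 were 10.4 CPM for pals-23, 9.40 for pals-17 and 7.43 for pals-24, followed by 4.25 for pals-18 and 3.62 for pals-16. The other 27 members together reached 6.66 and 6.83 CPM. In UM10 those 27 genes summed to 42.9 and 15.3 CPM on K12 and to 55.3 and 43.96 CPM on csgA(-), above N2 in all 4 libraries. The 11 genes of chromosome III summed to 55.6 and 50.4 CPM in N2, 59.6 and 41.3 CPM in UM10 on K12 and 47.7 and 65.04 CPM in UM10 on csgA(-), so the groups overlapped. All 38 members together reached 62.3 and 57.2 CPM in N2, 102.5 and 56.55 CPM in UM10 on K12 and 103 and 109 CPM in UM10 on csgA(-), so UM10 on K12 replicate 2 was not above N2. The share of the chromosome III genes of the family was between 46.3% and 73.0% in UM10.

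**Figure D1:**
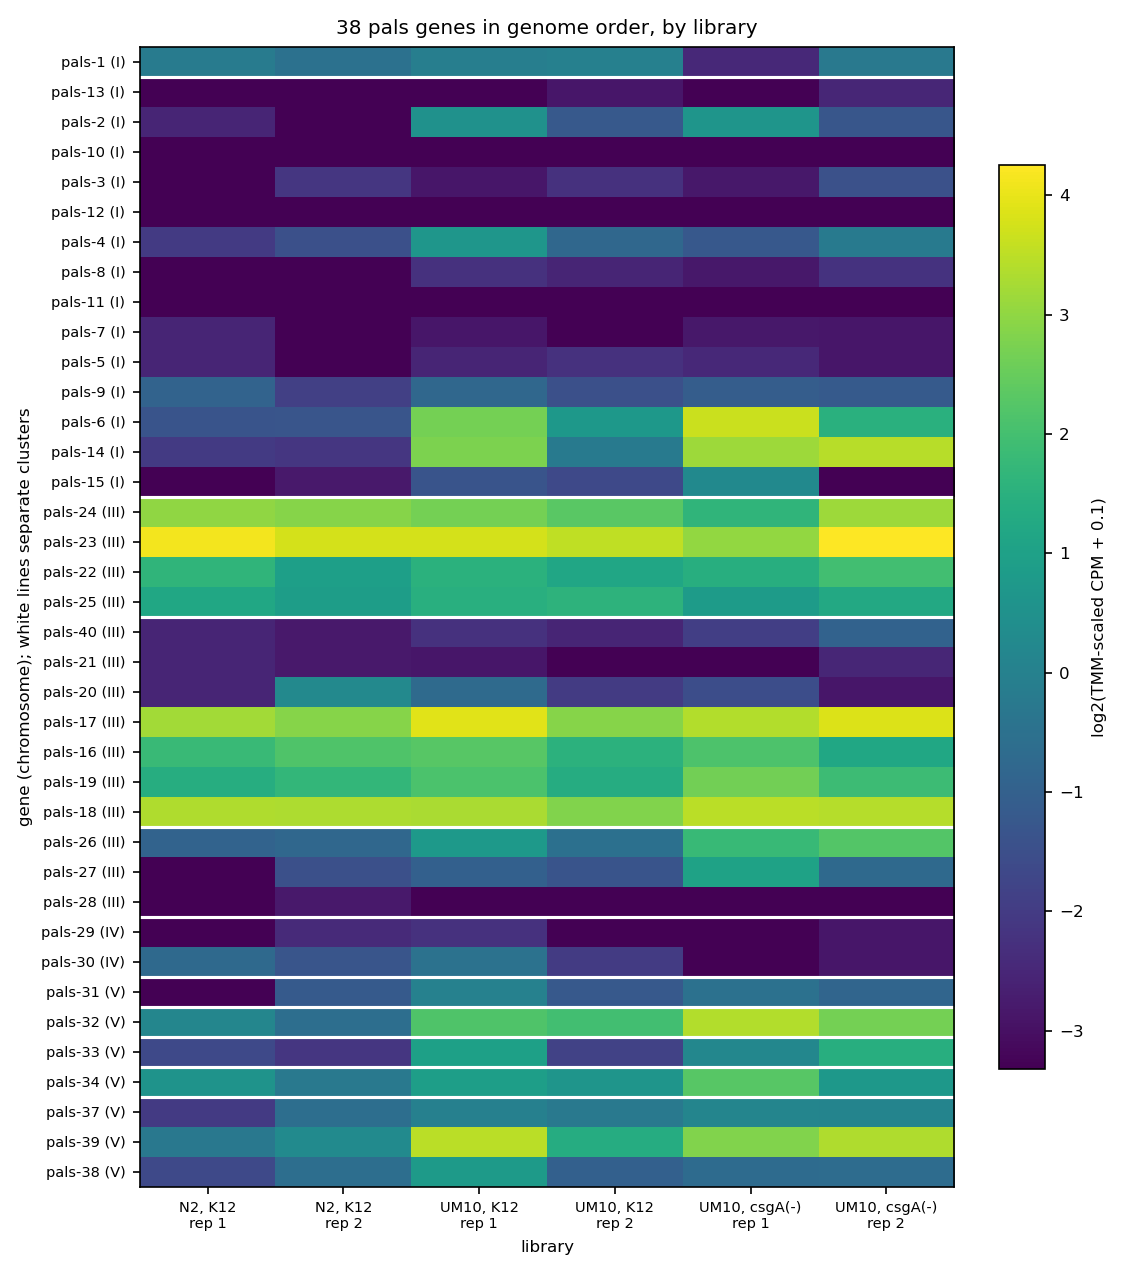
Level of each of the 38 pals genes (rows, in genome order, with white lines between tandem groups) in each of the 6 libraries (columns), as log2 of TMM-scaled CPM plus 0.1. The rows of pals-16 to pals-19 and pals-22 to pals-25 are bright in all libraries, whereas pals-6, pals-14, pals-32 and pals-39 are dim in N2 and brighter in UM10.

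**Figure D2:**
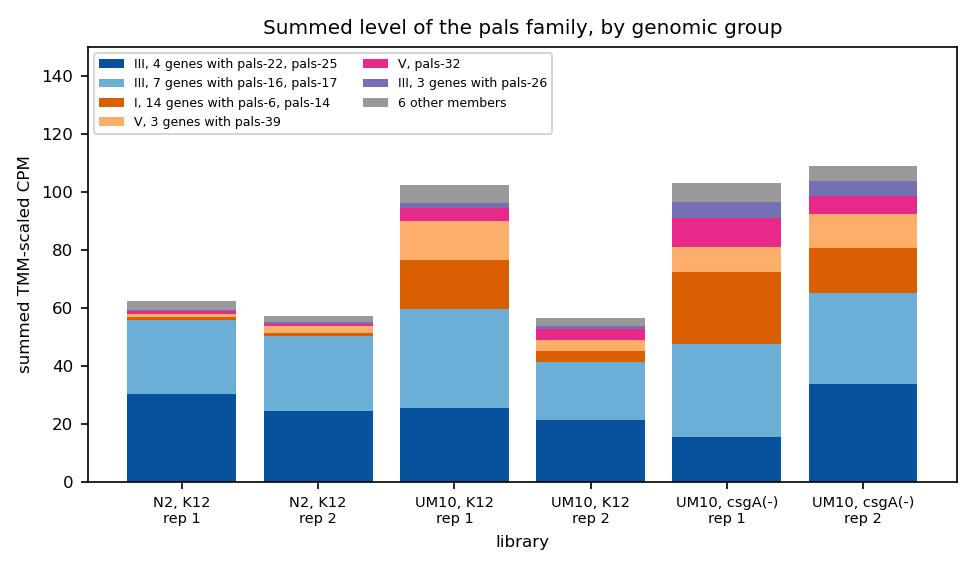
Summed TMM-scaled CPM of the pals family in each library, stacked by tandem group. The 2 large chromosome III groups (blue) form most of the N2 bars, and the chromosome I group (dark orange) grows from 1.23 and 1.04 CPM in N2 to between 3.94 and 24.6 CPM in UM10.

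The first comparison asked how UM10 differed from N2 on the same food. Over all 38 genes, without any filter, the mean level was higher in UM10 on K12 for 26, lower for 9 and 0 in both groups for 3, and among all genes with at least 1 count 44.5% were higher. Of the 23 tested members, 1 rose and 0 fell at an adjusted p under 0.05, against 2.75% of all 15331 tested genes called in either direction and 2.20% called higher. At an unadjusted p under 0.05, 7 members were higher and 0 lower (19.1% of all genes in either direction and 7.17% lower). The libraries of both groups did not overlap for 12 members that were higher and 3 that were lower, against 25.9% and 24.5% of all genes. The median log2 fold change was 1.10 over the tested members and -0.09 over all genes. It was 1.92 for the 14 tested members outside the 2 large chromosome III groups and -0.03 for the 9 within them. The 14 include the 7 members that passed the filter through UM10 alone, and the split was made after the values were seen. These medians are descriptions only.

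The gene called was pals-14 (WBGene00009061, chromosome I 13139122 to 13141898), a member of the intracellular pathogen response whose biochemical role is not known. It had 2 and 3 counts in the N2 libraries, 182 and 21 in UM10 on K12, and 214 and 283 in UM10 on csgA(-), or 0.145, 0.130, 6.67, 0.774, 8.79 and 10.9 CPM. Every UM10 library was above both N2 libraries, and K12 replicate 2 was the lowest of the UM10 libraries. From the summed counts the ratio of UM10 on K12 to N2 was 27.6, with an exact 95% interval of 11.6 to 85.8 that covers counting error only. Fitted by edgeR, the log2 fold change was 4.72 ± 1.02 (SE), at a quasi-likelihood p of 0.0373 after Benjamini-Hochberg adjustment. Without UM10 on K12 replicate 1 it was 2.45, with an adjusted p of 0.331 in the same edgeR test. The call was also lost without N2 replicate 1 or N2 replicate 2 (edgeR adjusted p 0.255 and 0.126), at log2 fold changes of 4.79 and 4.64, with upper-quartile factors (0.056) and with the second stranded column (0.0727).

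Near the threshold were 3 further members that lay above N2 in both UM10 on K12 libraries. The chromosome V gene pals-32 (2896610 to 2898527) was at 1.01 and 0.562 CPM in N2 and at 4.36 and 3.83 CPM in UM10 on K12, the closest pair of replicates among these genes. This was a log2 fold change of 2.401 ± 0.58 (SE; edgeR adjusted p 0.0525). Its exons share 195 bases with str-46 on the other strand, and reads there were not counted in the unstranded column. With either stranded column in its place the log2 fold change was 2.76 and 2.15, and the call was made with the first (edgeR adjusted p 0.0382 and 0.0988).

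For pals-39 (chromosome V 12441663 to 12443854) the levels were 0.724 and 1.12 CPM in N2 and 11.04 and 2.51 CPM in UM10 on K12. Its log2 fold change was 2.85 ± 0.72 (SE; edgeR adjusted p 0.0628). For pals-6 (chromosome I 13136390 to 13138544) they were 0.290 and 0.303 CPM in N2 and 6.31 and 1.55 CPM in UM10 on K12, with a log2 fold change of 3.70 ± 0.94 (SE; edgeR adjusted p 0.0630). As for pals-14, replicate 1 was several times above replicate 2 within UM10 on K12, so the group means carry a wide spread, 6.77 ± 6.03 CPM for pals-39 and 3.93 ± 3.37 CPM for pals-6 (SD, n = 2). The calls of pals-6, pals-32 and pals-39 depended on the fit. All 3 were called with DESeq2's Wald test and with only the 4 libraries compared, and also when either csgA(-) library was left out. None of the 3 was called without N2 replicate 1, without N2 replicate 2 or without UM10 on K12 replicate 1 (edgeR adjusted p 0.118 to 0.521). Without UM10 on K12 replicate 1 the log2 fold change fell to 1.41 for pals-39 and 2.35 for pals-6 (edgeR adjusted p 0.521 and 0.459). Without replicate 2 of that group it was 3.63 and 4.46 (edgeR adjusted p 0.0364 and 0.0582).

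That spread was shared by many members. Within UM10 on K12, 9 of the 14 tested members outside the 2 large chromosome III groups were at least 2 times higher in replicate 1 than in replicate 2, and 0 the other way. These 14 include the 7 that passed the filter through UM10 libraries alone, and they were set apart after their values were seen. Their count is a description only. Of the 9 tested members within those 2 groups, 2 were at least 2 times higher in replicate 1 and 0 in replicate 2. Among all tested genes the shares were 6.13% and 11.4%. By any margin, replicate 1 was the higher for 13 of the 14, 8 of the 9 and 6656 of all 15331 tested genes. In UM10 on csgA(-) the same 14 genes were split, with 4 at least 2 times higher in replicate 1 and 3 in replicate 2, and pals-6 (12.4 and 2.73 CPM) and pals-33 (1.03 and 2.57 CPM) differed in opposite directions.

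Among the members with the largest fitted changes was also pals-2, next to pals-14 in size but far lower in level. It had 1 and 0 counts in N2, 36 and 9 in UM10 on K12 and 35 and 8 in UM10 on csgA(-), and every UM10 library was above N2. The ratio of summed counts to N2 was 30.5 on K12 and 31.5 on csgA(-), with exact 95% intervals of 5.21 to 1230 and 5.36 to 1270. Its edgeR adjusted p was 0.117 on K12 and 0.0615 on csgA(-).

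None of the switches of the response was called in any comparison. The repressor gene pals-22 (WBGene00016216) was at 3.04 and 1.86 CPM in N2, 2.79 and 2.14 CPM in UM10 on K12 and 2.59 and 3.76 CPM in UM10 on csgA(-). The 3 groups overlapped, and the 2 UM10 groups differed from N2 by log2 fold changes of 0.02 ± 0.56 and 0.38 ± 0.56 (SE; edgeR adjusted p 0.992 and 0.685). Its activating partner pals-25 (WBGene00020540) was at 2.17 and 1.77 CPM in N2, 2.64 and 2.91 CPM in UM10 on K12 and 1.69 and 2.27 CPM in UM10 on csgA(-). UM10 on K12 lay just above the other libraries, by a log2 fold change of 0.50 ± 0.55 against N2 (SE; edgeR adjusted p 0.658), and the other groups overlapped.

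The repressor gene pals-17 (WBGene00022346, chromosome III 1390450 to 1391852) was among the highest members throughout. Its levels were 9.05 and 7.31 CPM in N2, 15.0 and 7.26 CPM in UM10 on K12 and 10.3 and 14.5 CPM in UM10 on csgA(-). Against N2 this gave log2 fold changes of 0.45 ± 0.49 on K12 and 0.60 ± 0.49 on csgA(-) (SE; edgeR adjusted p 0.652 and 0.443). The activator pals-16 (WBGene00022337) was at 3.40 and 4.37 CPM in N2, 4.77 and 2.84 CPM in UM10 on K12 and 4.27 and 2.19 CPM in UM10 on csgA(-), and was called in no comparison. The other activator, pals-20, was low: it had 1 and 25 counts in N2, 14 and 4 in UM10 on K12 and 6 and 1 in UM10 on csgA(-). Of its 988 exon bases, 502 are shared with Y82E9BR.5 on the other strand. The reporter gene pals-5 (WBGene00007659, chromosome I 13130813 to 13132466) stayed at 0 to 3 counts in all 6 libraries and could not be tested. In the same tandem group, with pals-9 between them, pals-6 reached 301 counts in UM10 on csgA(-) replicate 1.

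**Figure D3:**
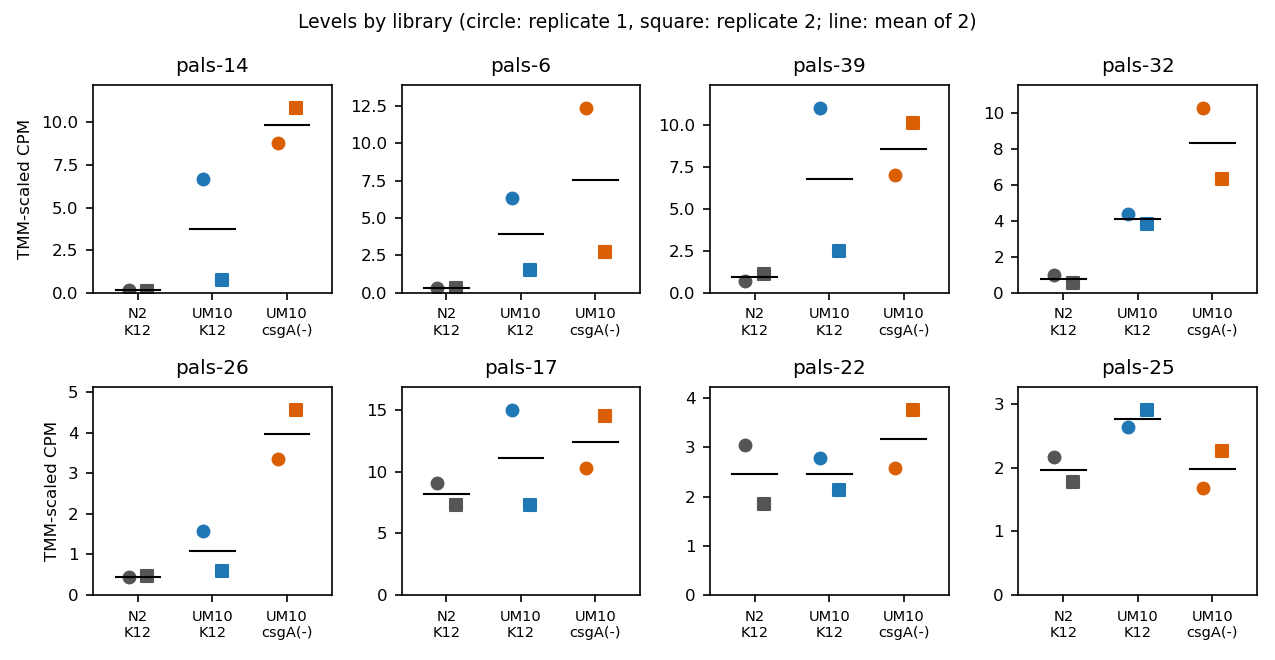
TMM-scaled CPM in each library (circles replicate 1, squares replicate 2) with the mean of each group as a line, for 5 members called in at least 1 comparison and for the regulators pals-17, pals-22 and pals-25. For pals-14, pals-6, pals-39, pals-32 and pals-26 all UM10 points lie above the N2 points, and for pals-22 the 3 groups overlap between 1.86 and 3.76 CPM.

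UM10 on csgA(-) differs from N2 on K12 in strain and food together, and it uses the same N2 libraries as the first comparison. Of the 23 tested members 5 rose and 0 fell, against 9.05% of all genes called in either direction and 3.95% called higher. They were pals-6, pals-14, pals-26, pals-32 and pals-39, of which pals-6 and pals-14 passed the filter through UM10 alone. At an unadjusted p under 0.05, 9 members were higher and 0 lower (28.4% of all genes in either direction and 13.4% lower). The libraries did not overlap for 15 members that were higher and 0 that were lower (34.3% and 26.5% of all genes). Over all 38 genes the mean was higher for 26 and lower for 9, with 51.5% of all genes with at least 1 count higher. The median log2 fold change of the tested members was 1.37, against 0.07 for all genes.

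The largest change was that of pals-14, with a ratio of summed counts of 72.9 (exact 95% interval 31 to 225) and a fitted log2 fold change of 6.12 ± 1.05 (SE; edgeR, Benjamini-Hochberg adjusted p 0.0108). Per kilobase it moved from rank 23 of 38 in N2 to rank 3 in UM10 on csgA(-), behind pals-17 and pals-23. For pals-32 the levels on csgA(-) were 10.3 and 6.34 CPM and the log2 fold change was 3.42 ± 0.60 (SE; edgeR adjusted p 0.0110). For pals-39 they were 7.03 and 10.1 CPM, with a log2 fold change of 3.19 ± 0.73 (SE; edgeR adjusted p 0.0243). For pals-6, at 12.4 and 2.73 CPM, it was 4.64 ± 0.96 (SE; edgeR adjusted p 0.0176).

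The fifth gene, pals-26 (WBGene00007131, chromosome III 4375154 to 4378907) was at 0.435 and 0.476 CPM in N2, 1.58 and 0.590 CPM in UM10 on K12 and 3.37 and 4.57 CPM in UM10 on csgA(-). The groups did not overlap and their order was N2, UM10 on K12, UM10 on csgA(-). The log2 fold change against N2 was 1.24 on K12 (standard error 0.69, edgeR adjusted p 0.355) and 3.10 on csgA(-) (standard error 0.70, edgeR adjusted p 0.0239). Its neighbour pals-27 had 0 and 6 counts in N2, 11 and 8 in UM10 on K12 and 48 and 13 in UM10 on csgA(-). Its log2 fold change on csgA(-) against N2 was 3.00 ± 1.07 (SE; edgeR adjusted p 0.0966). That value was 1.59 without csgA(-) replicate 1, 3.66 without csgA(-) replicate 2 and 2.12 without N2 replicate 1 (edgeR adjusted p 0.576, 0.0467 and 0.389). Without N2 replicate 2, which leaves N2 at 0 counts, no fold change is given. The third gene of that group, pals-28, had 1 count in all.

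All 5 calls needed N2 replicate 1, and all but those of pals-14 and pals-32 also needed N2 replicate 2. Without N2 replicate 1 none of the 5 genes was called by edgeR (adjusted p 0.0632 to 0.216), although the log2 fold changes stayed between 2.82 and 6.08, and among all genes 135 calls were left. Without N2 replicate 2, pals-14 and pals-32 were called. Without csgA(-) replicate 1, pals-6 and pals-26 were lost (edgeR adjusted p 0.0842 and 0.0566), and the log2 fold change of pals-6 was 3.05.

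**Figure D4:**
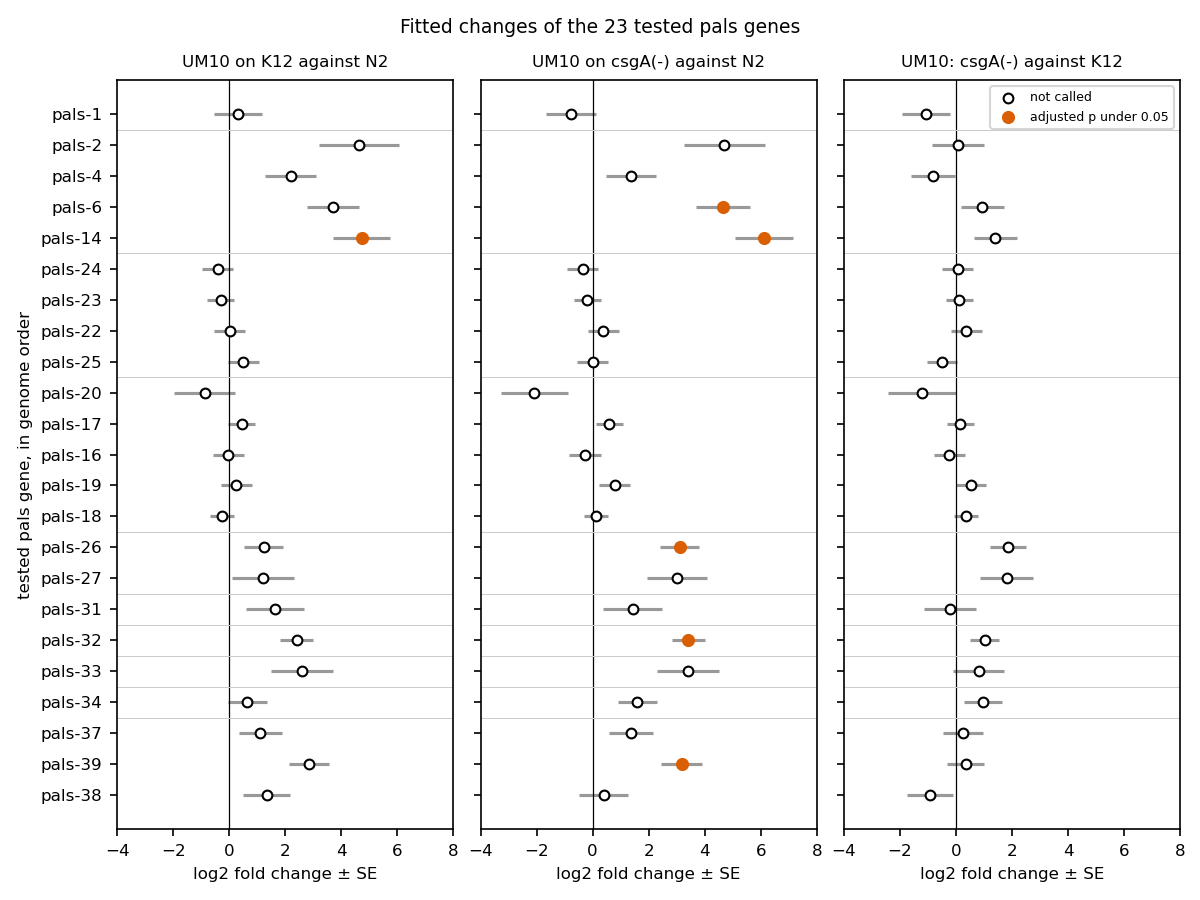
Fitted log2 fold change with its standard error for the 23 tested pals genes in genome order, for the 3 comparisons. Filled points mark an adjusted p under 0.05, which are pals-14 on K12, and pals-6, pals-14, pals-26, pals-32 and pals-39 on csgA(-) against N2. Points for the chromosome III genes from pals-24 to pals-18 lie near 0, apart from pals-20.

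The food comparison asked which members differed between csgA(-) and K12 within UM10. No member was called by edgeR's quasi-likelihood test, and 0% of all genes were called. At an unadjusted p under 0.05 there was 1 member, pals-26 (9.92% of all genes in either direction and 4.65% lower), and DESeq2's Wald test called 0 members and 242 of all genes. The mean level over all 38 genes was higher on csgA(-) for 22 and lower for 12, with 50.7% of all genes higher. The log2 fold change was 1.87 ± 0.64 for pals-26, 1.81 ± 0.95 for pals-27 and 1.40 ± 0.77 for pals-14 (SE; edgeR adjusted p 0.367, 0.587 and 0.610), each with both csgA(-) libraries above both K12 libraries. The size of these values varied with the libraries used. With 1 library left out, they ran from 1.17 to 2.67 for pals-26 and from 0.345 to 2.43 for pals-27. For pals-14 they ran from 0.403 to 3.59. The lowest values came without UM10 on K12 replicate 2 for pals-26 and pals-14, and without csgA(-) replicate 1 for pals-27. Without UM10 on K12 replicate 1 pals-26 and pals-14 were at their highest. Both csgA(-) libraries were also above both K12 libraries for pals-18, pals-32 and pals-37, and below both for pals-1 and pals-25. Among all genes 21.7% were higher and 19.0% lower without overlap.

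The filter left out 15 members. Of these, 12 had at least 1 count, and the highest count in any library was 27. That count belonged to pals-15, the last gene of the chromosome I group, which had 0 and 1 counts in N2, 8 and 6 in UM10 on K12 and 27 and 0 in UM10 on csgA(-). On chromosome IV, pals-30 went the other way, with 7 and 7 counts in N2, 17 and 4 in UM10 on K12 and 0 and 1 in UM10 on csgA(-), a ratio of csgA(-) to N2 of 0.0524 (exact 95% interval 0.00124 to 0.344). The gene pals-9 had 4 to 13 counts in each library, and pals-40 had 1 to 11. Each of pals-3, pals-7, pals-8, pals-13, pals-21, pals-28 and pals-29 had at most 7 counts in a library. In the chromosome I group pals-6 and pals-14, which lie next to each other between pals-9 and pals-15, held 58.9% to 87.4% of the summed level in UM10.

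The tandem groups also hold 10 protein-coding genes that are not pals genes. Of these 5 were tested, and none was called in any comparison. Their median log2 fold change was 0.20 on K12 and -0.64 on csgA(-), both against N2.

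Other genes known from the intracellular pathogen response were read beside the members. Of 31 listed names, 5 turned out to be older names of pals genes, 26 were matched and 17 could be tested. On K12 against N2, 2 rose and 0 fell (2.75% of all genes called, 2.20% higher), with a median log2 fold change of 0.495 against -0.09 for all genes. On csgA(-) against N2, 1 rose and 0 fell (3.95% of all genes higher), with a median of 0.625 against 0.07. Some of the 17, fbxa-158 among them, passed the filter through UM10 alone, so these counts and medians are a description. The gene called in both was fbxa-158, an F-box gene, with 2 and 1 counts in N2, 82 and 56 in UM10 on K12 and 42 and 81 in UM10 on csgA(-). From the summed counts the ratio to N2 was 31.2 on K12 and 30.1 on csgA(-), with exact 95% intervals of 10.5 to 153 and 10 to 148 for counting error only. Its fitted log2 fold changes were 4.82 ± 0.86 and 4.76 ± 0.86 (SE; edgeR adjusted p 0.0193 and 0.0115), and all UM10 libraries were well above N2. On K12 the call was lost without N2 replicate 1, N2 replicate 2 or UM10 on K12 replicate 1 (edgeR adjusted p 0.202, 0.0655 and 0.135), and on csgA(-) without N2 replicate 1 (edgeR adjusted p 0.066).

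The other gene called, Y94H6A.2, was high in UM10 on K12 only. It had 7 and 10 counts in N2, 113 and 107 in UM10 on K12 and 4 and 14 in UM10 on csgA(-). Its log2 fold change was 3.10 ± 0.71 on K12 against N2 and -3.498 ± 0.71 between foods (SE; edgeR adjusted p 0.0443 and 0.128). Leaving out any 1 of the 4 libraries compared, which leaves 1 library in a group, ended the K12 call. With 1 library left out, the log2 fold change on K12 stayed between 2.98 and 3.21. Unlike Y94H6A.2, pals-14, pals-26 and pals-32 were higher on csgA(-) than on K12 in each library. Apart from ubiquitin ligase and regulator genes, 7 listed genes were tested. On K12, 6 of the 7 lay above N2 without overlap (25.9% of all genes), with a median log2 fold change of 2.75. On csgA(-), 4 did (34.3%), with a median of 2.14. Those 4, F42C5.3, T08E11.1, eol-1 and Y6E2A.5, had an edgeR adjusted p of 0.236, 0.0886, 0.0996 and 0.32 on K12. F42C5.3, T08E11.1, eol-1 and Y75B8A.39 had at most 6 counts in an N2 library and passed the filter through UM10. The counts and medians over the 7 genes are therefore a description.

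Components and regulators of the response outside the family were read next. The cullin gene cul-6, part of a ubiquitin ligase of the response, was at 4.56 ± 0.821 CPM in N2, 5.95 ± 1.85 CPM in UM10 on K12 and 6.97 ± 0.789 CPM in UM10 on csgA(-) (SD, n = 2 each). The RIG-I-like receptor gene drh-1, a sensor of viral RNA, was at 19.1 ± 7.80, 27.01 ± 5.78 and 39.2 ± 9.09 CPM in the same order, with an unadjusted edgeR p of 0.0323 and an adjusted p of 0.138 on csgA(-) against N2. The transcription factor gene zip-1 was at 26.7 ± 3.95, 29.2 ± 2.37 and 18.2 ± 0.421 CPM. The purine nucleoside phosphorylase gene pnp-1, which restrains the response, was at 158.2 ± 89.5, 134 ± 9.66 and 169.7 ± 94.1 CPM. The retinoblastoma-like gene lin-35, named after its values were seen, was at 19.3 and 38.9 CPM in N2, 56.4 and 67.05 CPM in UM10 on K12 and 79.9 and 60.2 CPM in UM10 on csgA(-), with all UM10 libraries above N2. Its log2 fold change against N2 was 1.08 ± 0.43 on K12 and 1.26 ± 0.43 on csgA(-) (SE; edgeR unadjusted p 0.0284 and 0.0135, adjusted p 0.206 and 0.086). None of these 5 genes was called in any comparison.

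Because prolonged heat is a known trigger of the response, inducible heat shock genes were set beside the family. The summed level of 7 such genes was 86.8 and 5.66 CPM in N2, 4.14 and 161 CPM in UM10 on K12 and 1915 and 72.5 CPM in UM10 on csgA(-). The 2 libraries of each group were far apart, and edgeR called 0 of the 7 genes in any comparison. At an unadjusted p under 0.05, 0 were higher on K12 against N2 and 3 on csgA(-) in each comparison with that group, and DESeq2's Wald test called 1, on csgA(-) against N2. The part of heat in the pals differences was not tested. Of the 8 oocyte genes, 5 were called higher on K12 against N2 (2.20% of all genes) and 8 on csgA(-) against N2 (3.95% of all genes). Of the 9 intestinal genes, edgeR called 0 on K12 against N2 (2.75% of all genes in either direction), where 2 were lower at an unadjusted p under 0.05 and DESeq2's Wald test called 1, with 1 higher and 6 lower without overlap (25.9% and 24.5% of all genes). On csgA(-) against N2, 2 of the 9 were called, both lower (9.05% of all genes in either direction). At an unadjusted edgeR p under 0.05, 5 were lower (13.4% of all genes), and DESeq2's Wald test called 4, all lower. Without overlap, 6 were lower (26.5% of all genes) and 0 higher (34.3%). Their median log2 fold change was -1.296, with 0 of the 9 above 0. The part of oocyte and intestinal RNA in the pals differences was not tested.

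**Figure D5:**
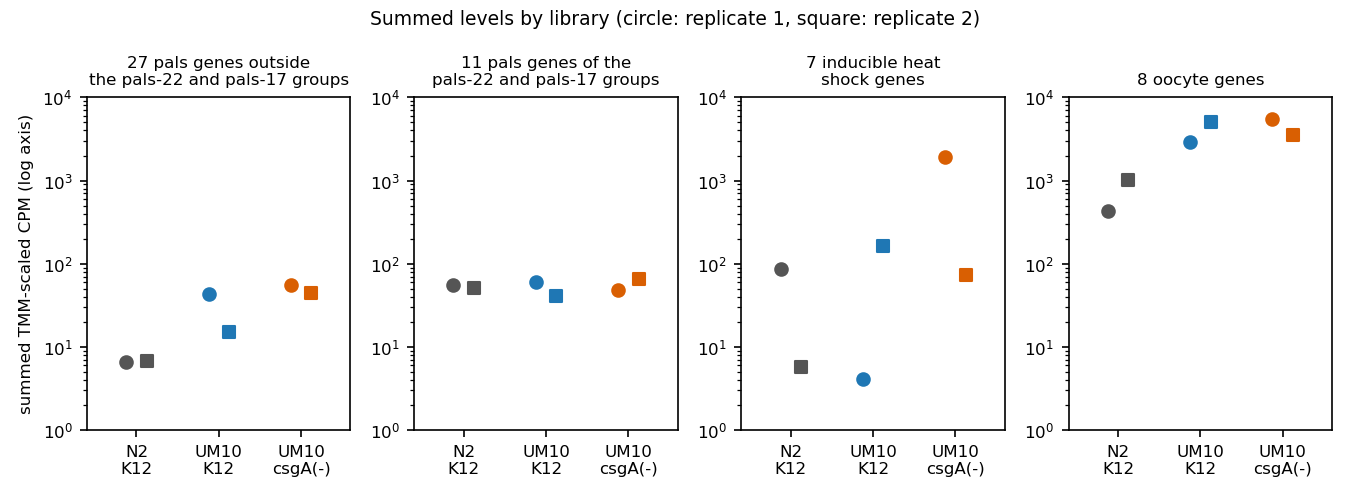
Summed TMM-scaled CPM in each library (log axis, circles replicate 1, squares replicate 2) of 27 pals genes, of the 11 pals genes of the 2 large chromosome III groups, of 7 heat shock genes and of 8 oocyte genes. The 27 genes lie at 6.66 and 6.83 CPM in N2 and between 15.3 and 55.3 CPM in UM10, the 11 genes stay between 41.3 and 65.04 CPM, and the heat shock level ranges from 4.14 to 1915 CPM.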

How the data were processed

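The authors deposited 1 table of raw read counts per gene for each library, with an unstranded column and 2 stranded ones. STAR 2.7.5, DESeq2 1.28.1 and the build WBcel235 are named in the submitters' processing notes, with no role or order. The annotation release behind the counts is not given in the sources used here. The unstranded column was used, since the first stranded column held 48.4% to 49.7% of both. The summary lines, which name no gene, made up 7.85% to 8.72% of reads and stayed out of library sizes and tests. Reads mapping to several places (2.57% to 4.05%) were not counted, so near-identical pals copies can be under-counted.

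Symbols came from the Ensembl release 115 annotation of WBcel235, which held 46603 of the 46778 identifiers. With edgeR 4.0.16 (R 4.3.3), filterByExpr, with a minimum of 10 counts in 2 libraries of median size and a total of 15, left 15331 genes. They were scaled by TMM and fitted with 1 term per group over all 6 libraries. The quasi-likelihood F test was adjusted by Benjamini-Hochberg over all genes, with calls at 0.05. Standard errors (SE) are the size of the log2 fold change divided by the root of its F statistic. Groups whose libraries held 3 counts or fewer each are given by ratios of summed counts. The script was tested on simulated data. DESeq2 was version 1.42.0.

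The members and lists were chosen with earlier results of these data known. Members with full values were pals-5, pals-16, pals-17, pals-22 and pals-25, all called members, and in each comparison the 3 tested members with the largest absolute log2 fold change. Other response genes named were the called ones and cul-6, drh-1, zip-1 and pnp-1. Others named with values (among them pals-9, pals-15, pals-20, pals-30, pals-33, pals-40, F42C5.3, T08E11.1 and lin-35) were chosen after their values were seen. No sequences were used here.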

Additional observations from a re-analysis of the deposited data

How the results depend on the processing

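For UM10 on K12 against N2, the 1 member called became 0 with upper-quartile factors and with the second stranded column, 3 with the first stranded column, 4 with DESeq2's Wald test and with only the 4 libraries compared, and 5 without the low-count filter and with the replicate block. With 1 library left out it was 0 to 4. It was 0 when either N2 library or UM10 on K12 replicate 1 was the one left out. The count over all genes, 421, became 276 with upper-quartile factors, 1181 with DESeq2's Wald test, 1333 without the filter, 845 with the replicate block and 2 to 574 with 1 library left out. The 2 other response genes became 1 with upper-quartile factors, 4 without the filter, 0 with the second stranded column and 0 to 2 with 1 library left out.

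For UM10 on csgA(-) against N2, the 5 members called became 9 without the filter and 0 to 7 with 1 library left out. They were 7 with the replicate block. The count over all genes, 1388, became 2574 with DESeq2's Wald test, 2705 without the filter, 870 with only the 4 libraries compared, 2434 with the replicate block and 135 to 1497 with 1 library left out. The 1 other response gene became 3 without the filter, 2 with the replicate block and 0 to 2 with 1 library left out. Between foods, 0 members were called under all 14 alternatives. Over all genes there were 242 calls with DESeq2's Wald test, 470 without the filter, 165 with the replicate block, 4 with the second stranded column and 0 to 80 with 1 library left out. Of the other response genes 1 was called with DESeq2's Wald test, without the filter and with the replicate block. The replicate numbers were not taken to pair the libraries, because no label says that they do. The differences between replicates 1 and 2 correlated across genes at 0.354 between N2 and UM10 on K12. The correlation was -0.079 between N2 and UM10 on csgA(-), and 0.093 between the UM10 groups.

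Sign changes among named genes fell on changes that were not called. On K12 against N2, pals-22 was at -0.012 with DESeq2 size factors, -0.128 with upper-quartile factors, -0.011 with DESeq2's Wald test and -0.044 with the first stranded column. In that comparison pals-16 was at 0.011 with only the 4 libraries compared and zip-1 at -0.012 with upper-quartile factors. On csgA(-) against N2, pals-25 was at -0.091, -0.143 and -0.089 with DESeq2 size factors, upper-quartile factors and DESeq2's Wald test, -0.074 with only the 4 libraries, -0.001 with the replicate block and -0.271 with the second stranded column. There pnp-1 was at -0.067 with upper-quartile factors and Y94H6A.2 at 0.404 with the second stranded column. Between foods, pals-2 was at -0.012 with only the 4 libraries and -0.163 with the first stranded column, and fbxa-158 at 0.126 with the second stranded column.

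With 1 library left out, log2 fold changes on K12 against N2 ran from -0.467 to 0.371 for pals-16, -0.185 to 0.952 for pals-17, -0.305 to 0.352 for pals-22, -0.071 to 0.289 for zip-1 and -0.72 to 0.437 for pnp-1. Between foods they ran from -0.968 to 0.145 for pals-16, -0.434 to 0.703 for pals-17, -0.713 to 2.257 for pals-6, -0.522 to 1.706 for pals-39, -1.594 to 1.349 for pals-2, -0.213 to 0.522 for cul-6, -0.541 to 0.766 for pnp-1 and -0.611 to 0.155 for fbxa-158. On csgA(-) against N2 they ran from -0.956 to 0.119 for pals-16, -0.24 to 0.074 for pals-25, -0.752 to 0.725 for pnp-1 and -1.489 to 0.077 for Y94H6A.2. The log2 fold changes of pals-6, pals-14, pals-32 and pals-39 against N2 were above 0 under all 14 alternatives in both comparisons. Upper-quartile factors moved the median of all genes from -0.088 to -0.235 on K12 and from 0.074 to -0.074 on csgA(-). Each fit with 1 library left out assumes that the lone library of a group varies like the other groups. The cause of these changes was not tested. Members with a few counts per library are limited by depth.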
